A study of Mus musculus with 2 samples.

Results

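Placode factors were followed through the lambdoid junction of the mouse face, the seam at which the nasal and maxillary prominences meet, at E11.5. The set held 9 genes, Six3, Six4, Eya1, Eya2, Eya4, Pax6, Sox2, Sox3 and Dmrta2, chosen by symbol among the 27998 genes that the tables of both libraries share, and each was found. Droplet-based single-cell RNA sequencing counted unique molecular identifiers (UMIs), 1 per captured transcript. The Crect; ROSA26-lacZ library came from embryos with Crect, a Cre driver transgene active in ectoderm, and a Cre-dependent lacZ reporter at ROSA26, and the other library came from wild-type embryos. Both are labelled C57BL/6J, and each pooled the tissue of 4 to 5 embryos. With 1 library per genotype, no difference between genotypes was tested, and values of the Crect library and the wild-type library are given side by side.

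Cranial placodes are patches of thickened ectoderm that give rise to the nose, lens and inner ear and to cranial sensory neurons. In the ectoderm that forms them, homeodomain proteins such as Six4 bind DNA, and Eya proteins, which are phosphatases, bind them and act with them on transcription. Pax6, a paired-box and homeobox factor, is needed for the lens and olfactory placodes, and Sox2 and Sox3 are SoxB1 factors of placodal and neural progenitors. Six3 acts in the forebrain, eye and anterior ectoderm, and Dmrta2, a DM-domain factor, acts in the cortex and olfactory region. Six4, Eya1 and Eya4 are also used outside ectoderm, in muscle, kidney and heart.

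After cells with more than 10% mitochondrial UMIs were left out, 6687 Crect and 7909 wild-type cells remained, with a median of 17581 and 14112 UMIs. Cre gave 1143 and lacZ 437 UMIs in the Crect library, and 1023 Cre UMIs lay in ectoderm-like cells. Clusters were named from marker genes, with the 9 factors held out of the clustering, and "-like" marks such a name. Ectoderm-like cells numbered 757 in the Crect library and 980 in the wild-type library, and mesenchyme-like cells 5257 and 5877. Within the ectoderm, 276 and 261 cells were nasal pit-like (named from markers that include Aldh1a3, Lhx2, Fezf1, Emx2, Sp8 and Dlx5), 111 and 171 oral-like, 172 and 365 basal surface-like and 44 and 60 periderm-like, the last being the flat outer layer. Another 154 Crect and 123 wild-type ectodermal cells lay in sub-clusters that met no name. A sub-cluster of 44 and 86 cells with mesenchymal genes among its leaders, most of them with high doublet scores, was kept out of the ectoderm. The libraries shared 76 barcode sequences. The rules that turned marker levels into names were set after the data were seen.

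Levels are CPM, the UMIs of a gene scaled to 1000000 UMIs of the class, so a lower level cannot be told apart from a gain of other transcripts. In endothelium-like and erythroid-like cells, which should lack these genes, Six3, Pax6, Sox2 and Dmrta2 stood between 0 and 2.92 CPM. Such levels were read as background from free RNA. Eya1 and Six4 were higher there. Endothelium-like cells of the Crect and wild-type library held 39 and 61 UMIs of Eya1 and 25 and 57 UMIs of Six4. Six3 had 10 and 14 UMIs in the same cells. Of the 7 nasal pit markers, 4 reached 20 CPM in nasal pit-like cells of each library. Summed, the 7 gave 1277 CPM (Crect) and 1072 CPM (wild-type) there. The unnamed ectoderm, part of the cells compared with them, had 879 and 815 CPM. The Tagln-led nasal pit-like cells (120 and 140) had a marker score of 0.371, where a name needed 0.35. Their oral score was 0.296.

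Between ectoderm and mesenchyme the factors fell into a group higher in ectoderm and a group as high or higher in mesenchyme. Of the 9 factors, 8 had enough counts for the test and 5 were higher in ectoderm-like cells, namely Six3, Pax6, Dmrta2, Sox2 and Eya2, against 13.6% of all genes tested. Eya4 was lower, against 8.75% of all genes, and Eya1 and Six4 differed by less than 2-fold. Genes were called at a 2-fold difference or more with an adjusted p below 0.05. The test was edgeR's quasi-likelihood test on 4 sums of counts, 1 per library and class, and since the same cells made the classes, its p-values are too small.

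Six3 reached 199 CPM in Crect and 124 CPM in wild-type ectoderm-like cells, against 3.65 and 1.32 CPM in mesenchyme-like cells. Both ectodermal values lay far above both mesenchymal ones, and endothelium-like cells had 1.92 and 2.07 CPM. The fold was 68.3 (95% interval 53.4 to 87.2, adjusted p = 5.27e-10). Pax6 stood at 51.8 and 20.3 CPM in Crect and wild-type ectoderm, against 0.640 and 0.327 CPM in mesenchyme, a 74.1-fold difference (59.9 to 91.7, adjusted p = 2.08e-10). Sox2 was level between the libraries, at 86.1 and 87.5 CPM in ectoderm, against 1.58 and 0.969 CPM in mesenchyme, or 69.1-fold (54.6 to 87.5, adjusted p = 4.12e-10). Dmrta2 held 67.8 and 33.3 CPM in ectoderm, against 1.81 and 1.11 CPM in mesenchyme, 34.6-fold (29.3 to 40.9, adjusted p = 1.71e-10). For each of these transcription factors the 4 sums did not overlap between the classes. The share of all genes with such sums was not counted.

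The Eya genes, the coactivator arm of the network, did not move as a family. Eya2 had 56.3 and 37.3 CPM in ectoderm, against 9.14 and 4.10 CPM in mesenchyme, a 7.49-fold rise (6.08 to 9.22, adjusted p = 4.00e-08). Eya1 had 47.6 and 37.3 CPM in ectoderm and 58.0 and 60.1 CPM in mesenchyme, so the mesenchymal sums were the higher ones in both libraries, by 1.38-fold (1.21 to 1.57, adjusted p = 0.00114). Eya4 was sparse everywhere, with 1.49 and 0.740 CPM in ectoderm and 2.65 and 7.17 CPM in mesenchyme, with the ectodermal level lower by 4.23-fold (2.25 to 7.96, adjusted p = 0.00167). That call was lost with library left out of the model (adjusted p = 0.0667), and the wild-type library carried most of it, at a log2 fold of -3.28 against -0.83 in the Crect library. Eya4 in ectoderm, on 21 and 13 UMIs, was near its level in endothelium-like cells (3 and 10 UMIs) and erythroid-like cells (6 and 6 UMIs). Six4, a DNA-binding partner of Eya proteins, had 34.3 and 37.7 CPM in ectoderm and 37.8 and 57.9 CPM in mesenchyme, 1.28-fold lower in ectoderm (1.11 to 1.49, adjusted p = 0.00923).

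**Figure D1:**
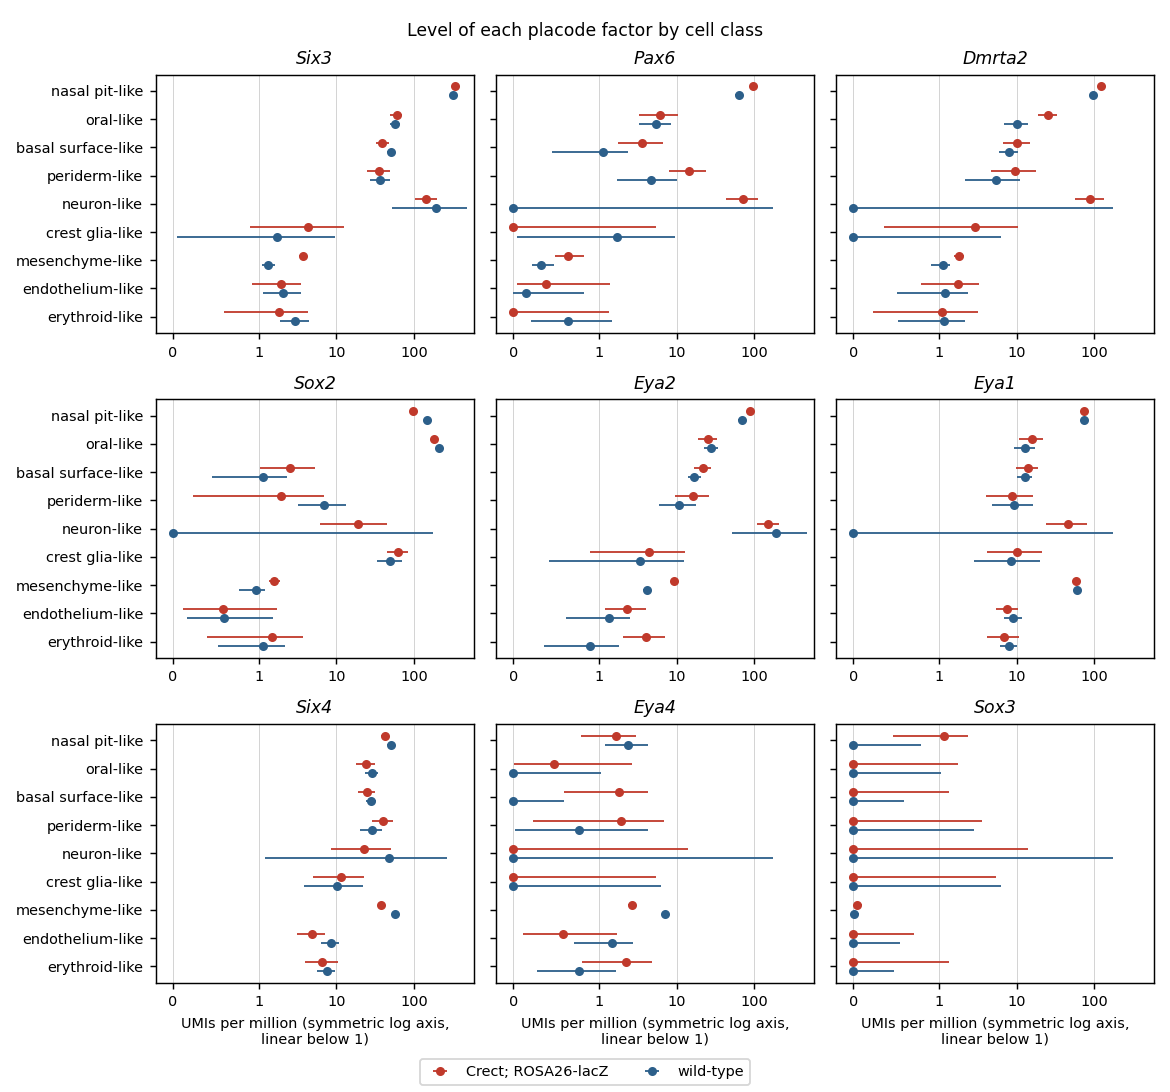
Each panel plots a factor's level (horizontal, symmetric log axis, CPM) in 9 cell classes, with Crect; ROSA26-lacZ in red above wild-type in blue and bars for the exact 95% counting interval. Six3, Pax6 and Dmrta2 peak in nasal pit-like cells and Sox2 in oral-like cells, while Six4 and Eya1 are also high in mesenchyme-like cells; the wild-type neuron-like class holds 2 cells.

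Promoter windows of Six3, Dmrta2, Pax6 and Sox2, which rose with ectoderm, and 1 of the Six4 windows are shown. They set the letters around the transcription starts side by side. Eya2 also rose, but no window was found for it. RefSeq windows on GRCm38.p6, from 250 bases before to 50 bases after a start, were found for 6 of the 9 genes, with 9 windows in all. Capitals mark matches, on either strand, of 5 motifs whose letters are given after the sequences.
Six3, chr17:85620584-85620883, plus strand: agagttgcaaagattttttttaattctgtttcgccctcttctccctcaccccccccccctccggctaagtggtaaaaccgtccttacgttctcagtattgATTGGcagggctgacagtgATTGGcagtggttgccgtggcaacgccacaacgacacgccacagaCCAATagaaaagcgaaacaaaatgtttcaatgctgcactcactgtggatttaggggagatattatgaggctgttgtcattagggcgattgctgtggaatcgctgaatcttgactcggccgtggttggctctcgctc
Dmrta2, chr4:109977775-109978074, plus strand: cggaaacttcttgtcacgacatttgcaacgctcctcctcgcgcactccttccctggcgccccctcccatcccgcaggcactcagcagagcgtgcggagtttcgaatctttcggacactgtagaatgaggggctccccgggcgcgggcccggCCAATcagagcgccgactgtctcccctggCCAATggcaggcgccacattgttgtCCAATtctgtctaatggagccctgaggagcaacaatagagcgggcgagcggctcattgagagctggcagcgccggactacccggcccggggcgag
Pax6, upstream start, chr2:105668646-105668945, plus strand: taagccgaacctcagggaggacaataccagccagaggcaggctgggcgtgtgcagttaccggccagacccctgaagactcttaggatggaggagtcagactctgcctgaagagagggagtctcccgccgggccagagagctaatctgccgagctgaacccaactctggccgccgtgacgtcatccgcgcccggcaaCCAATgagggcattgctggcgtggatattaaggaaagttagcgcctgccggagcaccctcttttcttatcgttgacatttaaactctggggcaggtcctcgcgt
Sox2, chr3:34649745-34650044, plus strand: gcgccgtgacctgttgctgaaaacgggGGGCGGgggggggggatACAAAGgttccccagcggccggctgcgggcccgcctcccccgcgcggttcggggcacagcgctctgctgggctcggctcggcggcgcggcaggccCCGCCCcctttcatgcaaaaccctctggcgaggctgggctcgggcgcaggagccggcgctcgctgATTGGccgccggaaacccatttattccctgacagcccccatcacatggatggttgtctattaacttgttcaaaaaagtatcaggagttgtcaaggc
Six4, chr12:73113196-73113495, minus strand: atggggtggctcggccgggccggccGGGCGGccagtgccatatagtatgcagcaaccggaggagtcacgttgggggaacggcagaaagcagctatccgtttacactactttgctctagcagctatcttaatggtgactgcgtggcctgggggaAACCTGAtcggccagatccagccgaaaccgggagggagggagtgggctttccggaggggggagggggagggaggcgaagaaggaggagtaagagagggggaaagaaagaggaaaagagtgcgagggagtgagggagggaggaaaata

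The CCAAT box is searched by the letters of its name. The Six3 and Dmrta2 windows each held 3 of them, at -150, -131 and -86 and at -99, -70 and -45 counted from the start, where 3.37% of 32851 mouse promoter windows hold 3 or more and 37.4% hold any. The upstream Pax6 window had a CCAAT box at -54 and the Sox2 window at -46, while the other Pax6 window (chr2:105682213-105682512) had none and a Sox core at -154. GC boxes, with the letters GGGCGG, lay at -223 and -111 in the Sox2 window and occur in 35.7% of all windows. The core of Sox sites, ACAAAG, lay at -206 in the same window and occurs in 18.7% of all. The MEF3 core, TCAGGTT, a motif bound by Six4 and its relatives, lay at -97 in the Six4 window and occurs in 4.07% of all, and that window had a GC box at -225. The other Six4 window (chr12:73113376-73113675) had a CCAAT box at -73 and a GC box at -45, with no MEF3 core. The TATA box, searched as TATAAA and present in 13.6% of all windows, lay in none of the 9. The 9 windows held 14 to 36 CpG pairs, against a median of 7 over all windows. These are matches of letters, with no measurement of binding.

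In GENCODE vM21, Six3 spans chr17:85613608-85629302 on the plus strand, where the antisense gene Gm28528 of the count tables overlaps it. Pax6 (chr2:105668900-105697364, plus strand) overlaps Pax6os1, and Eya2 (chr2:165595032-165771727, plus strand) overlaps Gm28163, both on the other strand and both counted. The sources used here do not say how counting treated strand, so reads of these pairs may not be separated. Sox2 (chr3:34650405-34652461), Dmrta2 (chr4:109978053-109983687), Six4 (chr12:73099609-73113456), Eya1 (chr1:14168954-14310235), Eya4 (chr10:23102963-23350786) and Sox3 (chrX:60891366-60893430) overlap no other gene of the tables. RefSeq starts and GENCODE spans do not always match. The Sox2 window above ends before the Sox2 span begins, and the Six3 window lies well inside the Six3 span.

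Within the ectoderm, several factors were higher in nasal pit-like cells than in the rest. Against other ectoderm without periderm-like or neuron-like cells, 5 of 8 factors tested were higher, namely Six3, Pax6, Dmrta2, Eya1 and Eya2, with 3.99% of all genes higher, and none was lower, with 3.12% of all genes lower. Six3 had 344 and 321 CPM in Crect and wild-type nasal pit-like cells, against 96.6 and 54.8 CPM in the other ectoderm, 4.55-fold (3.87 to 5.36, adjusted p = 7.86e-15). Pax6 had 96.6 and 63.3 CPM, against 18.2 and 4.74 CPM, 7.70-fold (5.99 to 9.91, adjusted p = 1.65e-13), and Dmrta2 122 and 97.8 CPM, against 29.4 and 10.5 CPM, 5.96-fold (4.75 to 7.48, adjusted p = 3.19e-13). In all 3 genes both nasal pit sums exceeded both other sums, and the share of all genes with this order was not counted.

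Eya1 and Eya2, the coactivators, rose here too. Eya1 stood at 74.0 and 74.2 CPM in nasal pit-like cells, against 30.3 and 25.7 CPM in the other ectoderm, 2.66-fold (2.26 to 3.14, adjusted p = 1.27e-10), and Eya2 at 87.7 and 69.7 CPM, against 34.7 and 27.2 CPM, 2.54-fold (2.17 to 2.98, adjusted p = 1.34e-10). Six4 had 42.2 and 50.8 CPM, against 26.5 and 33.4 CPM, a 1.55-fold difference (1.31 to 1.84) under the 2-fold threshold. Sox2 had 98.9 and 149 CPM, against 87.5 and 72.0 CPM, 1.54-fold (1.29 to 1.85), also under it. Its ratio was small in the Crect library (log2 fold 0.18) and larger in the wild-type library (1.05). Eya4, at 1.64 and 2.36 CPM against 1.29 and 0.0861 CPM, did not pass (adjusted p = 0.102).

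With coarser clusters, where 136 Crect and 174 wild-type cells were nasal pit-like with the Dkk4-led cells among them and the Rprm-led and Tagln-led cells outside, 2 of the 5 calls remained, Eya1 and Eya2, and Sox2 turned to a log2 fold of -0.66. With library left out of the model, Six3, Eya1 and Eya2 remained, while Pax6 (adjusted p = 0.0786) and Dmrta2 (adjusted p = 0.0582) did not.

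Members of the same families moved in the nasal pit-like cells as well. Tested were 7 further genes, from the Six4, Eya and Dach families with Sobp listed beside them. Of these, 3 rose, Six2 and Dach1 among them, 1 fell (Dach2) and 3 were not called. Their median log2 fold was 0.88 beside -0.00 over all genes. Six2, a homeodomain factor, had 171 and 184 CPM, against 37.5 and 26.1 CPM, a log2 fold of 2.51 ± 0.12 (SE). Of 6 further SoxB, Pax and Dmrt genes tested, 3 rose (Dmrt1, Dmrt3 and Dmrta1), 1 fell (Sox14) and 2 were not called, with a median of 0.80. Of 13 olfactory and preplacodal factors tested that had not named a class, 2 rose and 4 fell (median 0.31): Gata3 rose with a log2 fold of 1.07 ± 0.13, and Tfap2a, a surface ectoderm factor, and the signal Fgf8 fell by 2.72 and 1.93. None of 4 lens and eye-surface genes tested was called. Of 5 lens markers 0 reached 20 CPM in nasal pit-like cells of either library, with summed levels of 10.8 and 8.37 CPM and Foxe3, Cryaa and Cryba1 at 0, and these 3 were at 0 in all cells of both libraries as well. Of 5 retina and forebrain markers 0 reached 20 CPM, with sums of 0.492 and 0.644 CPM.

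**Figure D2:**
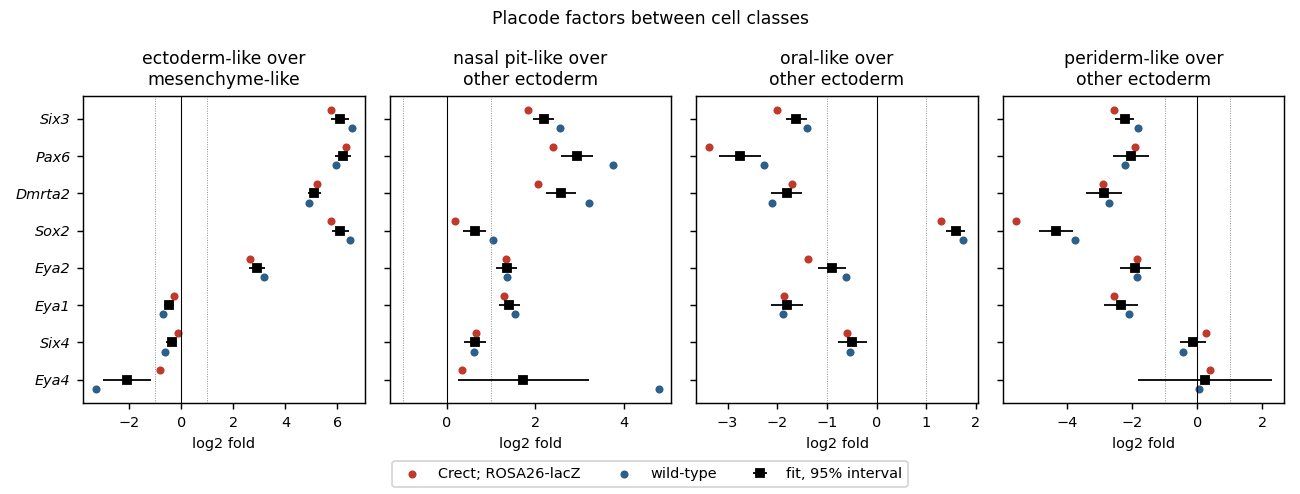
Each panel plots log2 folds (horizontal) of 8 factors between cell classes, with black squares and bars for the edgeR fit and its 95% interval, red points for the Crect library alone and blue points for the wild-type library alone; dotted lines mark 2-fold. Six3, Pax6 and Dmrta2 lie right of the line in ectoderm and in nasal pit-like cells, and Sox2 is the factor to the right in oral-like cells.

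Oral-like cells carried a different profile, high in Sox2 and low in the olfactory factors. Sox2, which marks progenitors of oral and pharyngeal epithelium, had 185 and 208 CPM in Crect and wild-type oral-like cells, against 75.2 and 62.3 CPM in the other ectoderm, 3.02-fold (2.65 to 3.44, adjusted p = 1.39e-58). It was the sole factor of 7 tested that was higher, with 2.26% of all genes higher, and 4 were lower, with 2.65% of all genes lower. Pax6 fell to 6.19 and 5.40 CPM, against 64.1 and 26.0 CPM, Six3 to 59.96 and 57.1 CPM, against 241 and 152 CPM, and Eya1 to 15.7 and 12.8 CPM, against 57.4 and 47.0 CPM. Dmrta2 fell to 25.2 and 9.94 CPM, against 81.5 and 42.6 CPM. With nasal pit-like cells taken out of the other ectoderm, Eya1 was still called, while Six3 (log2 fold -0.32, adjusted p = 0.306), Pax6 (-0.90, adjusted p = 0.185) and Dmrta2 (-0.17, adjusted p = 0.691) were not. Sox2 was called in every setting tried. With library left out of the model, Pax6 (adjusted p = 0.0605) and Dmrta2 (adjusted p = 0.187) were also lost. Sox2 was uneven within the class, which was described and not tested. Barx1-led oral-like cells (76 Crect and 98 wild-type) had 204 and 266 CPM of it. Ifitm1-led oral-like cells (35 and 73) had 116 and 107 CPM, against 98.9 and 149 CPM in nasal pit-like cells.

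Six2 was low in oral-like cells. Of 7 further genes tested there, from the Six4, Eya and Dach families with Sobp listed beside them, 3 fell and none rose. Six2 and Sobp were among those that fell. Six2 had 31.9 and 22.7 CPM, against 112.9 and 84.6 CPM, and fell by 1.80 on the log2 scale. Of 13 olfactory and preplacodal factors, 3 rose and 2 fell. Fgf8, a signal of the oral and nasal rim, had 158 and 213 CPM, against 17.8 and 7.37 CPM, a log2 fold of 4.02 ± 0.12 (SE), and Nrp2 a log2 fold of 1.38 ± 0.15. Dmrt2, the Dmrt gene that rose among 6 further SoxB, Pax and Dmrt genes, had 55.7 and 34.7 CPM, against 12.2 and 10.98 CPM. The fit gave infinite prior degrees of freedom here and for periderm, so those p-values carry the counting error and the spread common to all genes, not a gene's own spread between libraries.

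Periderm-like cells were poor in the set. Of 8 factors tested, 6 were lower than in the other ectoderm and none higher, with 4.47% and 5.85% of all genes lower and higher. Sox2 was down to 1.92 and 6.92 CPM, against 92.8 and 93.9 CPM, or 20.4-fold lower (adjusted p = 8.16e-57). Six3 kept 35.6 and 36.9 CPM, against 212 and 131 CPM, Eya1 8.65 and 9.23 CPM, against 50.7 and 39.6 CPM, Eya2 16.3 and 10.8 CPM, against 59.5 and 39.4 CPM, Dmrta2 9.62 and 5.38 CPM, against 72.5 and 35.5 CPM, and Pax6 14.4 and 4.61 CPM, against 54.8 and 21.5 CPM. Six4 did not follow, with 40.4 and 28.5 CPM, against 33.8 and 38.4 CPM (adjusted p = 0.721). The periderm-like level of Eya1 rested on 9 and 12 UMIs and was near its level in endothelium-like cells. Without nasal pit-like cells in the comparison 5 of the 6 calls held, and Pax6 was lost (adjusted p = 0.631), as it was with library left out of the model (adjusted p = 0.119). With finer clusters, which joined a Tagln- and Elf5-led sub-cluster to the periderm-like class, no factor was called. Among the 44 and 60 periderm-like cells, 16 had high doublet scores, and without such cells Eya2 stood at 7.58 CPM in the Crect library.

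Basal surface-like cells, the stratifying skin and surface ectoderm, had 39.1 and 51.1 CPM of Six3 in the Crect and wild-type library, 24.6 and 28.0 CPM of Six4 and 21.7 and 16.9 CPM of Eya2. Pax6, at 3.62 and 1.13 CPM, and Sox2, at 2.54 and 1.13 CPM, were near background there. Among the 4 named ectodermal classes Six3 was highest in nasal pit-like cells of both libraries, and the oral-like, basal surface-like and periderm-like levels lay between 35.6 and 59.95 CPM, well above the 1.32 to 3.65 CPM of mesenchyme.

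Crest glia-like cells, marked by Sox10, also had Sox2, at 62.3 CPM in 23 Crect cells and 49.5 CPM in 30 wild-type cells, with Six3 at 4.35 and 1.71 CPM (3 UMIs and 1 UMI).

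The sub-clusters of the nasal pit-like class differed in which factor led, and the following values are descriptions with no test. The Tagln-led cells (120 Crect and 140 wild-type) had 372 and 286 CPM of Six3 and the most Sox2, at 112 and 184 CPM. The Cpm- and Ebf1-led cells (109 and 108) had the most Eya2, at 142 and 88.6 CPM. The Rprm- and Pcdh19-led cells (47 and 13) had the most Pax6, at 170 and 104 CPM, and the most Dmrta2, at 202 and 122 CPM, with Eya2 down at 39.3 and 23.5 CPM. Dmrta2 in the Cpm- and Ebf1-led cells was 110 and 115 CPM, so the wild-type values of these sub-clusters were close. An unnamed sub-cluster led by Dlk1, Dlx5 and Fgf17 (55 and 30 cells) had the ectodermal factors together, with 393 and 236 CPM of Six3, 88.0 and 64.1 CPM of Pax6 and 210 and 204 CPM of Sox2.

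Another unnamed sub-cluster, led by Dkk4, Col9a1 and Sox9 (35 Crect and 74 wild-type cells), had Six4, Eya1 and Eya2 with little of Six3, Sox2 and Pax6. It had 69.8 and 109 CPM of Eya1, 74.1 and 65.9 CPM of Eya2 and 41.3 and 71.7 CPM of Six4, levels near or above those of nasal pit-like cells. Six3 stood at 34.2 and 15.2 CPM, 0.0995 (exact 95% interval 0.0636 to 0.148) and 0.0473 (0.0292 to 0.0726) of the nasal pit level. Sox2 had 1.42 and 11.6 CPM and Pax6 11.4 and 4.35 CPM. The cells were picked out after these values were seen, 16 of them had high doublet scores, and intervals of ratios cover counting error only.

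Neuron-like cells, with nasal pit markers beside neuronal ones, were too few for a test, at 13 Crect and 2 wild-type cells. In the 13 Crect cells Eya2 reached 153 CPM, against 87.7 CPM in nasal pit-like cells, a ratio of 1.75 (1.24 to 2.41), while Sox2 was at 19.2 CPM, against 98.9 CPM, a ratio of 0.194 (0.0627 to 0.455). Six3 had 146 CPM, Pax6 72.9 CPM and Dmrta2 88.2 CPM. The 2 wild-type cells gave 4 UMIs of Eya2, 4 of Six3 and 0 of Sox2.

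**Figure D3:**
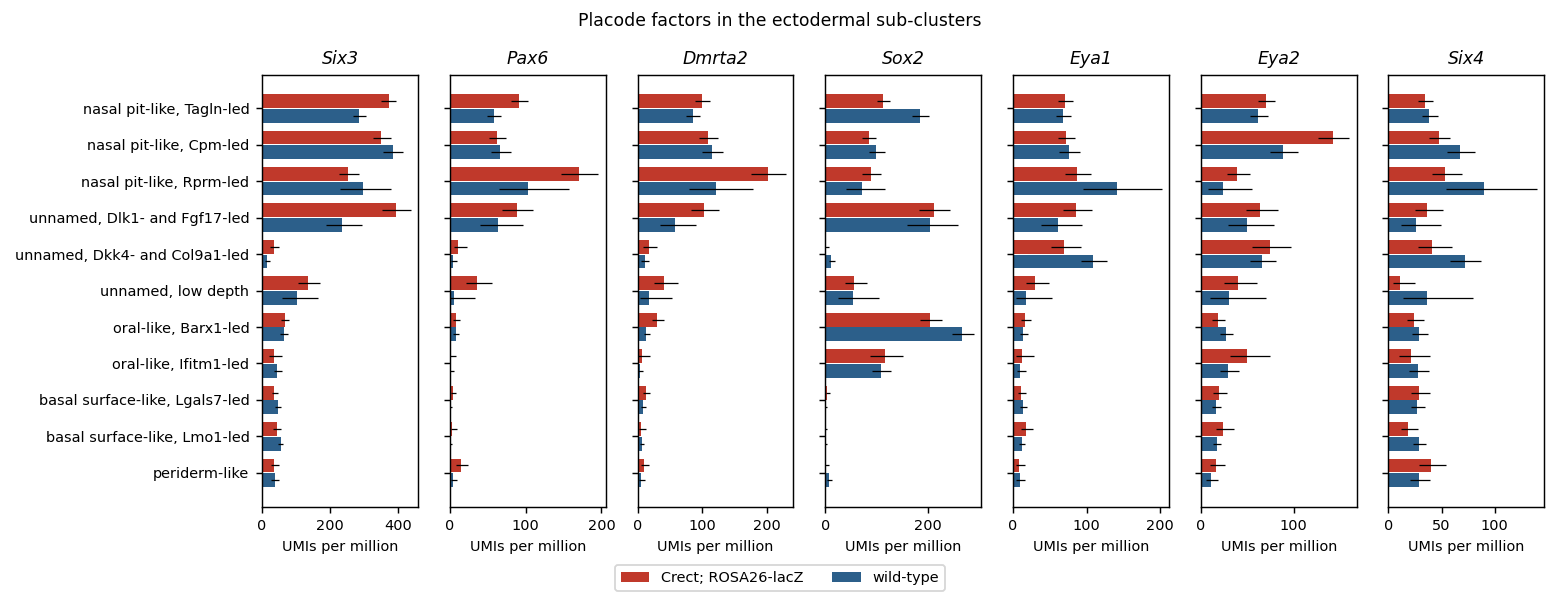
Bars show levels in CPM (horizontal, from 0) of 7 factors in 11 ectodermal sub-clusters, red for Crect; ROSA26-lacZ above blue for wild-type, with exact 95% counting intervals. The Dkk4- and Col9a1-led sub-cluster has Eya1, Eya2 and Six4 but little Six3, Pax6 or Sox2, and the oral-like sub-clusters have Sox2 but little Pax6.

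Sox3 was almost undetected: 15 UMIs in the whole Crect library and 1 UMI in the wild-type library. Of the 15, 7 lay in nasal pit-like cells and 4 in the Dlk1-led sub-cluster. No test or ratio was made.

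In mesenchyme, which the facial neural crest largely supplies, Six4 and Eya1 varied between clusters. Over the 16 mesenchyme-like clusters Eya1 ran from 17.3 to 87.6 CPM in the Crect library and from 11.7 to 88.1 CPM in the wild-type library, highest in dividing Shox2- and Lhx8-expressing cells and lowest in Foxp2- and Igf1-led cells. Six4 ran from 16.9 to 66.1 CPM and from 28.3 to 102 CPM. The clusters led by Sox9 and Pax9 held 559 Crect and 24 wild-type cells, and had Eya2 at 31.9 and 32.2 CPM, against 7.08 and 3.99 CPM in the rest of the mesenchyme. Eya4 was highest in Scx- and Sfrp2-led cells, at 6.21 CPM in the Crect and 23.5 CPM in the wild-type library.

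Across clusters, patterns close to that of Eya1 were those of Six2 (Pearson r = 0.855 over 32 Crect clusters and 0.818 over 29 wild-type clusters) and Sobp (0.787 and 0.863), on log2(CPM + 10). Six4 was most like Atn1 (0.772 and 0.766) and Zfp637 (0.764 and 0.794). Within the set, Six3 was most like Dmrta2 (0.961 and 0.936) and least like Six4 (0.166 and 0.0368) among the genes with a mean of 10 CPM or more. Outside it, Six3 followed the epithelial genes Krt18, Epcam and Rab25, Dmrta2 followed Aldh1a3, Krt18 and F3, Eya2 followed Aldh1a3 and Pdgfc, and Sox2 followed Pitx1, Fgf9 and Isl1. Pax6, whose own mean was below 10 CPM, was nearest to Dmrta2 (0.974 and 0.960) in the set and to Krt8, Cpm and Krt18 outside it. Clusters of a library share its depth and free RNA, so these values are descriptive.

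Among the classes counted, cells with several factors at once were most frequent in the nasal pit-like class. Periderm-like cells and the unnamed ectoderm, which includes the Dlk1-led sub-cluster, were not counted on their own. With every cell thinned to 3000 UMIs, 26.8% of 276 Crect and 21.8% of 261 wild-type nasal pit-like cells had UMIs of 3 or more factors (exact intervals 21.7 to 32.5% and 17.0 to 27.3%). The shares were 5.41% and 6.43% in oral-like, 0 and 0.274% in basal surface-like and 0.190% and 0.136% in mesenchyme-like cells; 0 of 172 allows a share of up to 1.74% by a limit of 3 cells in the total, with an exact upper bound of 2.12%. In endothelium-like cells it was 0 of 133 and 0 of 236. Six3 was seen in 58.7% and 54.0% of thinned nasal pit-like cells (96.0% and 92.3% without thinning, at medians of 19984 and 14721 UMIs), against 0% and 0.424% of thinned endothelium-like cells (7.52% and 5.93% without thinning, at medians of 33247 and 24246.5 UMIs).

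**Figure D4:**
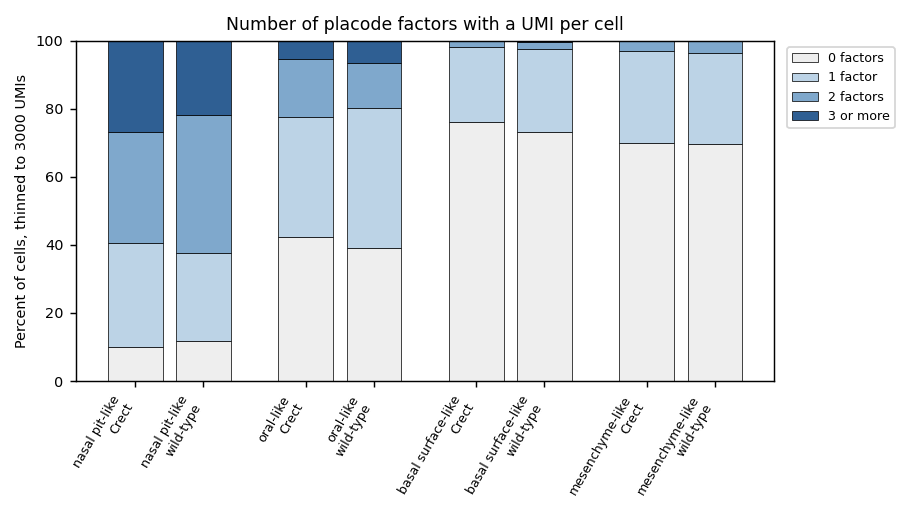
Stacked bars show the percent of cells (vertical, cells thinned to 3000 UMIs) with UMIs of 0, 1, 2 or 3 or more of the 9 factors, for 4 classes with the Crect library left of the wild-type library. The darkest part, 3 or more, is 26.8% and 21.8% in nasal pit-like cells and under 7% in the other classes shown. Periderm-like cells and the unnamed ectoderm are not shown.

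Over all ectoderm-like cells, those with a Six3 UMI more often had Pax6 (19.7% against 6.69% of cells without Six3 in the Crect library, 16.0% against 3.13% in the wild-type library) and Dmrta2 (22.5% against 11.4%, and 16.8% against 5.57%). Within nasal pit-like cells alone the difference was small beside its counting error: Pax6 was in 25.9% against 21.9% and in 21.3% against 15%, Dmrta2 in 27.8% against 29.8% and in 26.2% against 18.3%, with overlapping intervals. Sox2 was less frequent beside Six3 there, at 21.0% against 26.3% and 24.8% against 34.2%, again with overlapping intervals. Cells of a library are not replicates, and no test was made.

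Between the libraries, the ratios of Pax6, Dmrta2 and Six3 were larger in the whole ectoderm than in nasal pit-like cells, while Dmrta2 in oral-like cells had a ratio of 2.54 (1.62 to 4.01) and Pax6 3.21 (1.10 to 9.94) in basal surface-like cells on 10 and 7 UMIs. Pax6 was 2.56-fold (exact 95% counting interval 2.25 to 2.91) and Dmrta2 2.04-fold (1.84 to 2.26) higher in Crect ectoderm-like cells, where 1.97% of genes with 30 or more UMIs were higher by 2-fold or more, and Six3 was 1.60-fold (1.51 to 1.69) higher. Eya4 had a ratio of 2.01 (0.962 to 4.37) on 21 and 13 UMIs. In nasal pit-like cells these ratios were 1.53 (1.33 to 1.76), 1.24 (1.11 to 1.40) and 1.07 (1.0001 to 1.14). Nasal pit-like cells made up 36.5% of Crect and 26.6% of wild-type ectoderm-like cells. Whether this makeup bears on the ratios was not tested. Sox2 was level in the ectoderm, at 0.984 (0.912 to 1.06; 1.05 with mitochondrial, haemoglobin and ribosomal protein genes out of the total), and lower in Crect nasal pit-like cells, at 0.665 (0.595 to 0.743), where none of the factors with 30 or more UMIs passed 2-fold and 1.48% of genes were higher and 2.38% lower by that much. No such factor was lower by 2-fold in ectoderm, where 2.87% of genes were.

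In mesenchyme-like cells, Eya4 was lower in the Crect library, with a ratio of 0.370 (0.319 to 0.429), where 3.68% of genes were lower by 2-fold or more. It was lower in 16 of 16 clusters, and the interval stayed under 1 in 12. Clusters of a library are not replicates, and the share of all genes lower or higher in as many clusters was not counted. Six4 was lower by less, with a ratio of 0.653 (0.626 to 0.682), in 16 of 16 clusters, with the interval under 1 in 15. Eya1 was at 0.966 (0.930 to 1.004), and at 1.04 with mitochondrial, haemoglobin and ribosomal protein genes out of the total. Eya2 had a ratio of 2.23 (1.97 to 2.53), which was 1.77 (1.55 to 2.03) without the Sox9-led clusters. Six3, at 3.65 against 1.32 CPM, had a ratio of 2.77 (2.23 to 3.45), where 2.76% of genes were higher by 2-fold or more. It was higher in 15 of 16 clusters, with the interval over 1 in 7. In endothelium-like cells Six3 had 1.92 and 2.07 CPM on 10 and 14 UMIs, a ratio of 0.927 (0.368 to 2.24). The wild-type mesenchymal level of Six3 lay within the levels read as background. Pax6, Dmrta2 and Sox2, at levels read as background in both libraries, also had ratios above 1. Without the Sox9-led clusters these were 2.13 (1.33 to 3.50), 1.60 (1.23 to 2.09) and 1.57 (1.18 to 2.09), with Six3 at 2.78 (2.24 to 3.48). The median ratio over all genes was 0.948 in mesenchyme and 0.952 in ectoderm. Genotype, pool and library preparation cannot be told apart.

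**Figure D5:**
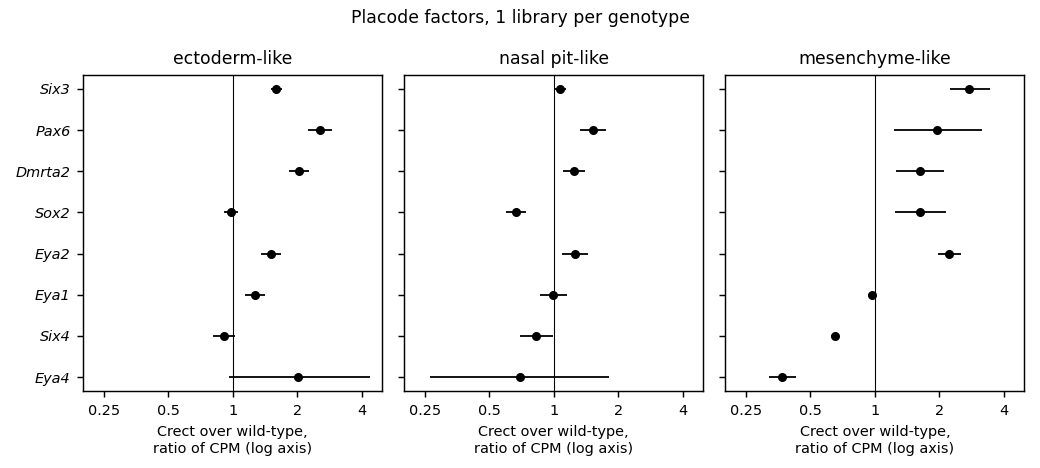
Points show the ratio of levels, Crect; ROSA26-lacZ over wild-type (horizontal, log axis), for 8 factors in ectoderm-like, nasal pit-like and mesenchyme-like cells, with exact 95% counting intervals. Pax6 and Dmrta2 lie nearer to 1 in nasal pit-like cells than in the whole ectoderm, and Six4 and Eya4 lie below 1 in mesenchyme-like cells.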

How the data were processed

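The 2 libraries hold 1 genotype each. The authors deposited UMI counts for every gene in every barcode, whole numbers with no normalization; Cell Ranger 2.0 and mm10 come from the submitters' processing notes. The labels name the 10x Genomics 3' v2 kit. The sources used here do not say how strand and empty barcodes were treated.

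Cells with at most 10% mitochondrial UMIs were kept. Counts were scaled to 10000 per cell, and 2000 variable genes without the 9 factors and the 4 further gene lists (52 genes held out) gave 30 principal components, 15 neighbours and Leiden clusters (leidenalg 0.10.2) at resolution 1.0. Ectoderm was clustered again at 0.8. Doublets were scored with Scrublet (scanpy 1.11.5) and kept, because its automatic threshold marked 0.03% of Crect cells; removing the 380 and 508 highest scores was an alternative.

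Counts were summed per library and class and tested with edgeR 4.0.16 in R 4.3.3 (TMM, filterByExpr, quasi-likelihood, library as a block, Benjamini-Hochberg over all genes), which left 1 residual degree of freedom. A class needed 15 cells per library. The 9 factors and all lists were chosen with earlier results of these data known. From each further list the text names at most 2 genes a direction, those called with the largest change, provided the libraries point the same way and the mean reaches 20 CPM; other called genes of these lists were named after their values were seen, and a few genes that the rule chose are not reported here. Genes that named classes were left out of list counts. Replicate 1 of each library shares only a number. The fits were tested on simulated data. DESeq2 1.42.0, no filter, no block, other resolutions, marker gates and leaving out each library were alternatives. Intervals of ratios are exact Poisson and those of shares Clopper-Pearson, from scipy 1.17.1; both reflect counting error alone.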

Additional observations from a re-analysis of the deposited data

Results flagged for a closer look

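The ratio of Six4 between periderm-like cells and the other ectoderm pointed opposite ways in the libraries, with a log2 ratio of 0.26 in the Crect library and -0.43 in the wild-type library. The difference between these ratios was not tested, and they rest on 42 and 37 periderm UMIs.

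The Crect over wild-type ratio of Six3 was above 1 in mesenchyme-like cells (2.77) and in nasal pit-like cells (1.07) and below 1 in basal surface-like cells (0.766). The wild-type mesenchymal level of Six3 was near background. The ratio of Sox2 was 1.63 in mesenchyme-like cells, where both levels were near background, and 0.665 in nasal pit-like cells. These differences between classes were not tested, since each genotype has 1 library.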

How the results depend on the processing

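Among class contrasts, the 5 factors higher in ectoderm than in mesenchyme were called under every alternative with a test, and with no replicate block 0 factors were lower. For nasal pit-like cells, 481 genes were higher and 376 lower. With no replicate block these were 153 and 159, with DESeq2 217 and 171, at resolution 0.5 and 0.4 277 were higher, and with the marker gate 243. The factors called higher numbered 3 with no replicate block and 2 at resolution 0.5 and 0.4, where Sox2 reversed to -0.66. For periderm, 720 genes were higher and 550 lower, against 459 and 243 with no replicate block, 435 and 218 with DESeq2, and 228 lower at resolution 2.0 and 1.5, where 0 factors were called and Six3 (0.0763) and Pax6 (0.24) reversed. Six4 there was 0.0513 at resolution 0.5 and 0.4 and 0.13 without nasal pit-like cells. For oral-like cells, 276 were higher and 324 lower, against 112 and 65 with no replicate block and 137 and 88 with DESeq2. Factors called lower numbered 2 with no replicate block and 1 without nasal pit-like cells. The cause was not tested. Either library alone gives a log2 fold with no test, and no called factor changed direction in it. No paired analysis beyond this block was possible because each genotype has 1 library.

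With mitochondrial, haemoglobin and ribosomal protein genes out of the total, the ratio between libraries was 1.70 for Six3 in ectoderm, and 0.701 for Six4 and 1.04 for Eya1 in mesenchyme. Eya2 there was 1.77 without the Sox9-led clusters, an alternative chosen after seeing the data, as were those on unnamed, mixed and nasal pit-like cells. Without doublets, Crect periderm had 7.58 CPM of Eya2 and 0 of Sox2.

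The share of Six3-positive minus Six3-negative ectoderm with Pax6 was, in Crect cells, 18.6 points at 6000 UMIs and 39.8 without thinning, and 25.7 in unthinned wild-type cells. For Dmrta2 it was 17.0 and 35.5 (Crect) and 17.9 and 28.5 (wild-type), for Sox2 16.1 and 39.8 and 17.1 and 26.5, and for Eya1 34.3 (Crect) and 15.3 (wild-type) without thinning.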
